A study of Mus musculus with 2 samples.

Results

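The genes of oxidative phosphorylation were examined for acetylation of histone H4 at lysine 16 (H4K16ac) in mouse macrophages. The cells were labelled wild type or KAT8-cKO, after the acetyltransferase KAT8. Members were taken by symbol from the RefSeq protein-coding genes of mm10: names starting with Nduf, Sdh (Sdha to Sdhd and Sdhaf), Uqcr, Uqcc, Cox followed by a digit, or Atp5, together with Cyc1 and Cycs. The rule gave 114 of 21887 protein-coding genes, of which 88 encode subunits, 25 assembly factors and 1 the electron carrier cytochrome c. By complex, 47 members belong to complex I, 8 to complex II, 12 to complex III, 29 to complex IV and 17 to complex V.

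CUT&Tag was used to map the mark: an antibody guides a transposase to cut and tag DNA next to the modified histone. The cells were primary macrophages grown from mouse bone marrow with M-CSF at 20 ng/ml, and both genotypes received R848, an agonist of the endosomal receptor TLR7, at 100 ng/ml for 2 h. One library came from wild-type (WT) cells and one from KAT8-cKO cells, a name read here as a conditional knockout of Kat8, so each group had 1 library, and no untreated library was analysed here. The labels do not name the driver of the deletion, and its completeness was not measured here. The labels name no cell line or clone and do not say how many mice supplied the marrow.

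The respiratory chain carries electrons from NADH (complex I) or succinate (complex II) through complex III, cytochrome c and complex IV to oxygen, and complex V uses the proton gradient to make ATP. Most of its subunits are encoded in the nucleus, and assembly factors insert cofactors or join the parts without staying in the finished enzyme. H4K16ac is a mark of open chromatin placed mainly by KAT8, and macrophages change the balance of respiration and glycolysis when Toll-like receptors are engaged.

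The deposited data are 1 peak list per library, with 58229 WT and 55149 KAT8-cKO peaks. Each peak carries the authors' peak caller's fold over background and −log10 q. From the fold and the listed −log10 p, the number of fragments stacked over the summit was recovered, as a whole number, for 99.9% of peaks in each list. The lowest background that the caller used was 3.09 fragments in WT and 3.68 in KAT8-cKO, 1.19 times as high, so where that floor applied, a given number of fragments gave a lower fold in KAT8-cKO. Of 12 macrophage markers, 10 had a WT and 6 a KAT8-cKO peak near a gene end, against at most 3 and 2 of 6 for T cell, B cell, neutrophil and fibroblast markers, and 46.8% and 43.3% of all protein-coding genes. With q under 0.05 only 4 and 3 of the 12 macrophage markers had a peak, shares no higher than for neutrophil markers (2 of 6 in each list), and Lyz2 had none at any q, so these peaks do not set macrophages apart. At Kat8 itself a peak of fold 2.46 was listed in WT and none in KAT8-cKO, which does not show how far the gene was deleted. With 1 library per genotype there is no test between genotypes, and in a pool of cells, fewer marked cells and less mark per cell cannot be told apart.

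The stretch just before the transcription start is shown for members with strong peaks, with and without a searched motif, and for the leading members of 1 list only. Sequences are the 100 bases before the listed start on the gene's own strand, 5′ to 3′, from RefSeq on GRCm38.p6, the assembly behind mm10. The first 3 belong to members with strong peaks in both lists: the complex I subunits Ndufb4 (chr16:37654369-37654468, minus strand) and Ndufa8 (chr2:36049339-36049438, minus strand) and the ATP synthase c-ring gene Atp5g2 (chr15:102671048-102671147, minus strand). Atp5e (chr2:174464102-174464201, minus strand), the ATP synthase epsilon gene with the highest KAT8-cKO −log10 q, holds none of the searched motifs and has no capitals. The last belong to the members with the highest −log10 q among those listed in 1 genotype only, Ndufs5 (chr4:123718187-123718286, minus strand) for WT and Uqcr11 (chr10:80406822-80406921, minus strand) for KAT8-cKO. Capitals mark, in Ndufb4, Ndufa8, Atp5g2 and Ndufs5, the motif of the factor NRF1 on either strand, spelled here as GCGC, any base, then TGCGC. In Uqcr11 they mark CCGGAAGT, the motif of ETS factors such as GABPA.
Ndufb4: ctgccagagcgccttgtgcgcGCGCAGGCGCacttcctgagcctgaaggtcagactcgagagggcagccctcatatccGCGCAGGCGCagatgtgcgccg
Ndufa8: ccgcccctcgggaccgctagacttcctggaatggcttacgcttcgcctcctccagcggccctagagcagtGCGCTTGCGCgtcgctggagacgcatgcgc
Atp5g2: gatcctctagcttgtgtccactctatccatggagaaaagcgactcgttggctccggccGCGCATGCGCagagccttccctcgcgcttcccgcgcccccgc
Atp5e: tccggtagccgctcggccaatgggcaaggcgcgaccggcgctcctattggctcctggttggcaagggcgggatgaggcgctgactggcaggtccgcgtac
Ndufs5: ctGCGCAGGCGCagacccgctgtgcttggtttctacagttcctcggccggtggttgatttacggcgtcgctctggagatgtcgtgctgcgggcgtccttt
Uqcr11: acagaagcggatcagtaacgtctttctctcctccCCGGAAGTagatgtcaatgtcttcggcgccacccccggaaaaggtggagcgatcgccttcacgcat
The NRF1 letters stood 79 to 70 and 22 to 13 bases before the start of Ndufb4, 30 to 21 before Ndufa8, 42 to 33 before Atp5g2 and 98 to 89 before Ndufs5. The ETS letters of Uqcr11 stood 66 to 59 bases before the start. Of the 10 members with the highest WT −log10 q, 4 held the NRF1 letters in the 300 bases around the start and 5, Atp5g1, Ndufb5, Atp5e, Ndufb2 and Ndufv3, held none of the searched motifs. A match describes the letters and does not show that a factor was bound.

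A second set shows a widely used and a restricted isoform of complex IV and an X-linked member, with capitals on every CG dinucleotide, the site of DNA methylation. Cox8a (chr19:7217617-7217716, minus strand) encodes the widely used isoform of a complex IV subunit and was marked in both lists. Cox8b (chr7:140900447-140900546, minus strand) encodes its heart and muscle isoform, and the X-linked Cox7b (chrX:106015600-106015699, plus strand) another complex IV subunit. Both were marked in neither.
Cox8a: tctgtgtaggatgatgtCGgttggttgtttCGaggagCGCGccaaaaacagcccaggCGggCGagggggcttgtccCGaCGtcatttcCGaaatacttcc
Cox8b: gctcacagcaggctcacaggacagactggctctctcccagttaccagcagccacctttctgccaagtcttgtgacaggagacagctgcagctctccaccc
Cox7b: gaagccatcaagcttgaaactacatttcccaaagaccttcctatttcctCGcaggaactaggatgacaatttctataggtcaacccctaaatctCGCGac
These 100 bases hold 9 CG dinucleotides in Cox8a, 0 in Cox8b and 3 in Cox7b. Not all unmarked members were poor in them: 5 of the 10 with a listed promoter had promoters rich in CG, with GC of at least 50% and CG at 0.6 or more of expectation (Ndufa1, Ndufs7, Cox5a, Cox7a2 and Atp5k). Of these 5, however, Cox5a and Cox7a2 had peaks in both lists within 1 kb of the listed start. They counted as unmarked because that start lies outside the windows around their gene ends.

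Most oxidative phosphorylation genes carried a peak in both genotypes. A gene was called marked if a peak overlapped, by at least 1 bp, the 1 kb on either side of an annotated gene end. In WT, 94 members were marked (82.5%, 95% Wilson interval 74.4 to 88.3), against 46.8% of all protein-coding genes. In KAT8-cKO, 90 were marked (78.9%, 70.6 to 85.4), against 43.3% of all. These intervals cover counting error over genes only. The 2 lists shared 84 members, or 73.7% of them, against 35.8% of all genes. A further 10 members were marked in WT only (background 11.1%), 6 in KAT8-cKO only (7.52%) and 14 in neither (45.7%). Of the members marked in WT, 10.6% had no KAT8-cKO peak, against 23.6% of all WT-marked genes, and 6.67% of those marked in KAT8-cKO had no WT peak, against 17.4%.

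**Figure D1:**
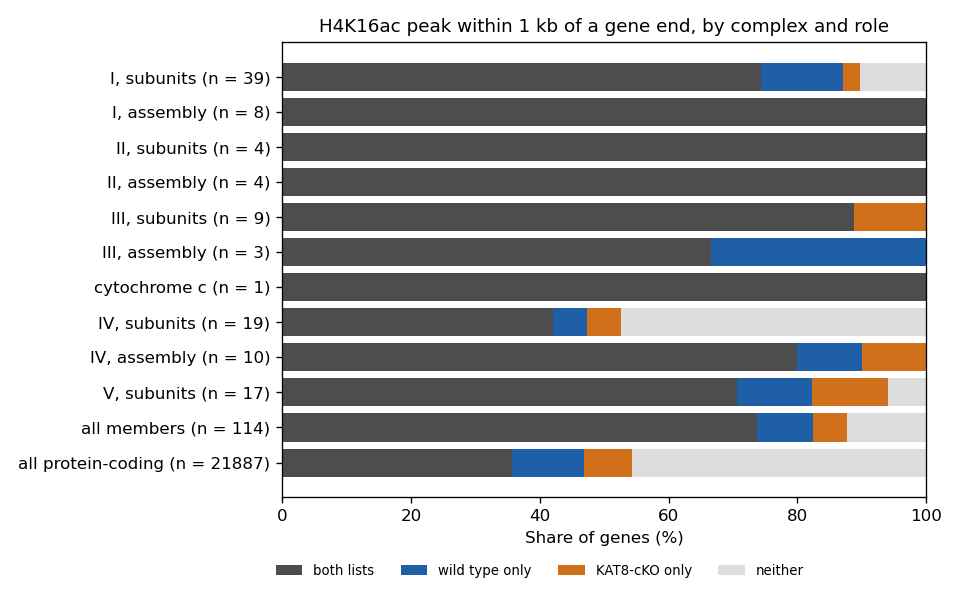
Share of genes (x axis, percent) with an H4K16ac peak within 1 kb of a gene end in both lists (dark grey), wild type alone (blue), KAT8-cKO alone (orange) or neither (light grey), for each complex and role (rows, n in brackets). All 25 assembly factors were marked in at least 1 list, and the 14 unmarked members were subunits of complexes I, IV and V.

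The excess of members over all genes held for peaks with q under 0.05 and with −log10 q of at least 5. A peak with q under 0.05 stood at 87 members in WT (76.3%, against 36.8% of all genes) and at 81 in KAT8-cKO (71.1%, against 31.3%). At this threshold 71 members were marked in both lists (25.3% of all), 16 in WT only (11.6%) and 10 in KAT8-cKO only (6.01%). With −log10 q of at least 5 the counts were 38 in WT (33.3%, against 12.4% of all genes) and 19 in KAT8-cKO (16.7%, against 5.99%). At 10 or more they were 5 (4.39%, against 3.03%) and 2 (1.75%, against 0.832%), too few genes to carry an excess. Ranked by fold among all peaks of its list, the strongest peak of a marked member had a median percentile of 88.7 in WT and 85.4 in KAT8-cKO, beside 82.0 and 74.1 for all marked genes. The top 10% of peaks by fold held 41 WT members (43.6% of those marked) and 33 KAT8-cKO members (36.7%), beside 33.1% and 27.9% of all marked genes. Peaks near gene ends thus ranked high in general, and few members reached the highest q classes.

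**Figure D2:**
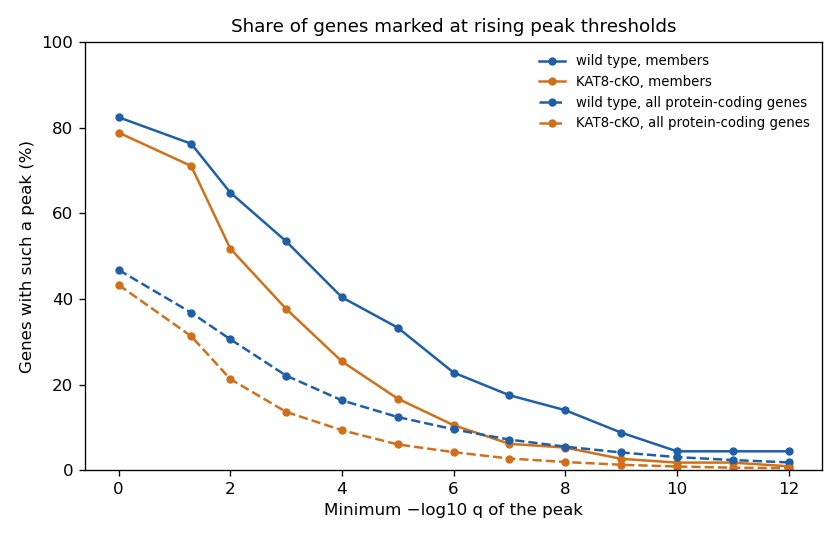
Share of genes (y axis, percent) with a peak near a gene end at or above a minimum −log10 q (x axis), for the 114 members (solid lines) and all 21887 protein-coding genes (dashed lines) in wild type (blue) and KAT8-cKO (orange). The line of the members lay above that of all genes of the same list at each threshold plotted, and in both sets the KAT8-cKO line lay below the wild-type line.

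Complex I, which oxidises NADH, had 37 of its 47 members marked in both lists, 5 in WT only, 1 in KAT8-cKO only and 4 in neither. By −log10 q in WT, its 5 strongest peaks stood at accessory subunits, which surround the catalytic core. Ndufb4 had a peak of fold 6.27 in WT (chr16:37653945-37654663) and 5.74 in KAT8-cKO (chr16:37653812-37654663), with 31 and 30 fragments at the summit. Both peaks spanned the listed start, and the KAT8-cKO peak had the −log10 q next below the highest of any member in that list, 11.5, against 13.2 in WT. Ndufa8 was listed at fold 6.47 in WT, the highest fold of any member, and at 5.14 in KAT8-cKO, with 29 and 24 fragments. Ndufb5, an accessory subunit of the membrane arm, had 35 and 31 fragments and folds of 5.47 and 4.44, in a window shared with Mrpl47. Ndufb2 stood at folds of 5.34 and 4.32. Ndufv3, an accessory subunit beside the NADH site, stood at 5.26 and 4.89. These 5 accessory subunits had the higher fold in WT in each case. Over the 37 members marked in both lists, folds ran from 2.33 to 6.47 in WT and from 2.35 to 5.74 in KAT8-cKO.

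The 5 subunits above were picked for strong WT peaks, so the 7 catalytic core subunits are set beside all 32 accessory subunits. Over those marked in both lists, median folds were 2.92 in WT and 2.94 in KAT8-cKO for 5 core subunits. They were 3.59 and 3.53 for 24 accessory subunits. Of the core subunits, the iron-sulfur subunit Ndufv2 had folds of 4.64 in WT and 4.53 in KAT8-cKO. Its KAT8-cKO peak lay at the far end of the gene, in the window of Ankrd12. At the listed start of Ndufv2 the folds were 4.64 and 4.01. Ndufv1, which binds NADH, had 3.31 and 2.70. Ndufs1, the largest core subunit, had 2.74 and 2.94. Ndufs3 had 2.33 and 3.19 from peaks at different ends, and 2.33 and 2.25 at its listed start. Ndufs8 was marked at its far end in both lists (2.92 and 2.57), in the window of Tcirg1. Ndufs7, an iron-sulfur subunit, was marked in neither list. A peak with q under 0.05 stood at 3 of the 7 core and 27 of the 32 accessory subunits in WT, but at 5 and 24 in KAT8-cKO, where the shares were close (71.4% and 75%). All 8 complex I assembly factors were marked in both lists. Among these, Ndufaf5 had the strongest WT peak, with folds of 5.86 and 4.70, in a window shared with Esf1.

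Complex II, which oxidises succinate, was the complex of more than 1 member in which every gene was marked in both lists. Its flavoprotein Sdha had a fold of 5.56 in WT and 3.42 in KAT8-cKO, with 23 and 15 fragments at the summit, in a window shared with Ccdc127. The iron-sulfur subunit Sdhb had 3.39 and 2.76. The membrane anchors Sdhc and Sdhd had 4.03 and 3.49 in WT, and 4.27 and 2.99 in KAT8-cKO. The 4 assembly factors Sdhaf1 to Sdhaf4 lay between 3.66 and 5.29 in WT and between 2.60 and 4.22 in KAT8-cKO. Sdhc and Sdhaf3, which protects the iron-sulfur subunit during assembly, had the higher fold in KAT8-cKO, and the other 6 in WT.

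Complex III, which passes electrons from ubiquinol to cytochrome c, had 10 of 12 members marked in both lists, 1 in WT only and 1 in KAT8-cKO only. Of these 10, 8 had the higher fold in WT, with medians of 4.13 in WT and 2.82 in KAT8-cKO. The core protein Uqcrc1 had a fold of 5.04 in WT (chr9:108936519-108937460) and 2.90 in KAT8-cKO (chr9:108936748-108937334), with 25 and 14 fragments. Its partner Uqcrc2 had 4.81 and 5.04, with 22 and 25 fragments. These core proteins, which form a pair in the enzyme, thus stood in opposite order between the lists. The ubiquinone-binding subunit Uqcrq had 4.49 and 2.75, the Rieske protein Uqcrfs1 had 3.18 and 2.56, and Cyc1, which encodes cytochrome c1, had 3.88 and 2.54. Folds of the 10 members ran from 3.18 to 5.04 in WT and from 2.34 to 5.04 in KAT8-cKO. Cycs, which encodes the mobile carrier cytochrome c, was marked at 4.78 in WT and 3.85 in KAT8-cKO, with 21 and 19 fragments.

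Complex IV, the oxidase that reduces oxygen, had the lowest share of marked members, 62.1% in each list (Wilson interval 44.0 to 77.3). Its subunits and assembly factors differed in this. Of 19 subunits, 8 were marked in both lists, 1 in WT only, 1 in KAT8-cKO only and 9 in neither. Of 10 assembly factors, 8 were marked in both lists and 1 in each list alone. Without the isoforms classed below as restricted, 11 subunits remained, of which 7 were marked in both lists, 1 in WT only and 3 in neither. Scored within 1 kb of listed starts, 9 of these subunits gave 7 in both lists, 1 in WT only and 1 in neither. The contrast with the assembly factors was thus smaller among these subunits. The heme O synthase Cox10 had the strongest WT peak of the complex, at folds of 5.79 and 4.39 with 24 and 20 fragments. Cox7a2l, which helps complexes III and IV join into supercomplexes, had 5.13 and 3.84, and the copper chaperone Cox17 had 4.05 and 4.20. Among subunits the strongest was Ndufa4, once assigned to complex I, with 4.92 and 5.09 and 25 and 28 fragments, in a window shared with Phf14. Folds of the 16 members marked in both lists ran from 2.60 to 5.79 in WT and from 2.99 to 5.09 in KAT8-cKO. The KAT8-cKO −log10 q of Ndufa4, 9.20, was among the 5 highest of the members in that list, with Atp5e, Ndufb4, Ndufb5 and Uqcrc2.

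The unmarked complex IV subunits were mainly isoforms known to be restricted to other tissues. Of 8 members classed here as restricted isoforms, 6 were in neither list: Cox4i2 (lung), Cox6a2 (heart and muscle), Cox8b (heart and muscle), and Cox6b2, Cox7b2 and Cox8c (testis). Widely used partners marked in both lists were Cox4i1 at 2.60 in WT and 3.33 in KAT8-cKO and Cox6a1 at 3.03 and 3.63. Cox8a, the partner of Cox8b and Cox8c, was also marked in both, at 3.70 and 3.68. The partner of Cox6b2, Cox6b1, was marked in WT only at 2.90, and that of Cox7b2, Cox7b, in neither. Cox7a1, the muscle isoform, was marked in both at 2.75 and 3.45, but by peaks with summits 2857 and 2928 bp from its listed start, in the window of Capns1. Ndufa4l2, an isoform of Ndufa4 known from hypoxia but counted in the same class, was marked in KAT8-cKO only at 2.79, by a peak in the window of Stac3. Without the restricted isoforms, 93 of the remaining 106 members were marked in WT (87.7%).

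Complex V had 12 of 17 members marked in both lists, 2 in WT only, 2 in KAT8-cKO only and 1 in neither. The 2 members with the highest WT −log10 q encode the same mature protein, the subunit c that forms the rotating ring. Atp5g2 had 36 fragments at the WT summit (exact Poisson interval 25.2 to 49.8) and 25 in KAT8-cKO (16.2 to 36.9), at folds of 6.03 and 4.23 and −log10 q of 14.6 and 6.25. Atp5g1 had 37 (26.1 to 51.0) and 21 (13.0 to 32.1), at folds of 5.54 and 3.50 and −log10 q of 13.7 and 3.67. For both genes the WT count was higher, and the intervals, which cover counting error only, overlapped. The remaining ring gene Atp5g3 was marked in WT only, at fold 3.18 with 12 fragments. In the catalytic head, the epsilon subunit gene Atp5e went the other way, with 5.27 in WT and 5.90 in KAT8-cKO, 28 and 31 fragments, and the highest KAT8-cKO −log10 q of all members, 12.3. Its window was shared with Prelid3b. Atp5a1, the alpha subunit, had 4.58 and 3.04, and the catalytic beta subunit Atp5b had 2.81 and 2.78 with 12 fragments in each list. In the peripheral stalk, Atp5pb had 5.33 and 4.10, and Atp5j had 4.05 and 2.92 in a window shared with Gabpa, which encodes an ETS factor. Folds of the 12 members marked in both lists ran from 2.63 to 6.03 in WT and from 2.78 to 5.90 in KAT8-cKO.

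**Figure D3:**
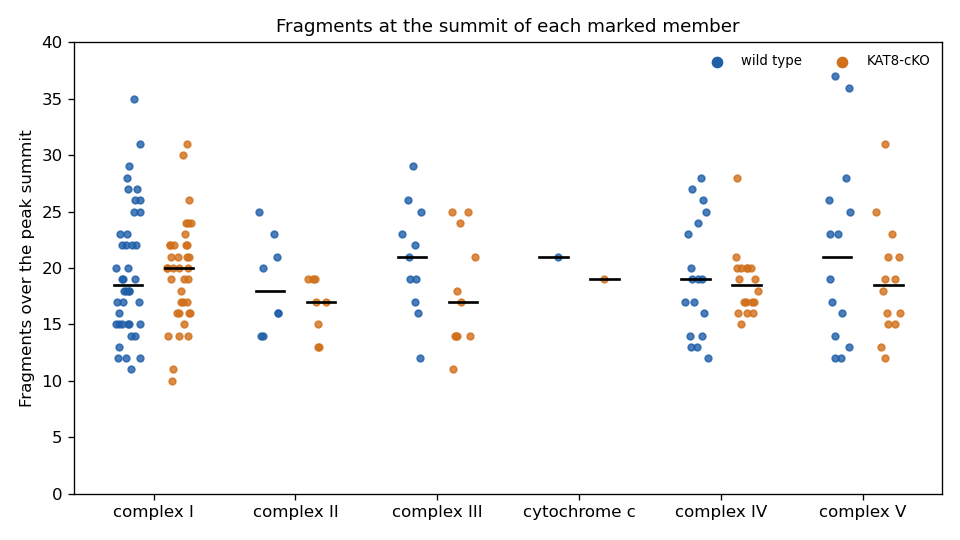
Number of fragments over the summit of the strongest peak (y axis) of each marked member, by complex, for wild type (blue) and KAT8-cKO (orange); black bars are medians and points are spread sideways for visibility. Most members lie between 10 and 30 fragments in both lists, and the highest wild-type points are Atp5g1 (37) and Atp5g2 (36) in complex V and Ndufb5 (35) in complex I.

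The 10 members marked in WT only had a median fold of 3.18, and 9 of them passed q under 0.05. The strongest was Ndufs5, an accessory subunit of complex I, with fold 4.61, −log10 q of 5.84 and 20 fragments (12.2 to 30.9) in a peak at chr4:123718095-123718533. The nearest KAT8-cKO peak lay 15257 bp from its gene ends. Cox16, an assembly factor for complex IV, followed with 4.42, 5.23 and 19 fragments. Ndufs4, an accessory subunit often mutated in complex I deficiency, had 4.40, 4.64 and 17 fragments, with the nearest KAT8-cKO peak 70248 bp away. Lower folds were listed for Ndufc1 (3.69), Ndufc2 and Atp5g3 (3.18 each), Atp5j2 (2.95), Cox6b1 (2.90) and Uqcc3 (2.68), with 12 to 17 fragments. The peak of Ndufc2 lay at its far end. For Atp5g3, a KAT8-cKO peak of fold 4.27 lay 1205 bp from the gene end, just outside the window but within 1 kb of a listed start, so both lists marked that start.

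The 6 members marked in KAT8-cKO only had a median fold of 2.85, and 5 passed q under 0.05. Uqcr11, a small accessory subunit of complex III, had 3.26, −log10 q of 3.88 and 25 fragments (16.2 to 36.9), with the nearest WT peak 1343 bp away. Cox15, which makes heme A, had 3.53, 2.93 and 17 fragments in a window shared with Cutc. Atp5o, the stalk subunit that confers oligomycin sensitivity, had 2.88 and 13 fragments. The folds were 2.83 for Ndufa7 (window shared with Rps28), 2.79 for Ndufa4l2 and 2.44 for Atp5d. For each of the 6, the nearest WT peak lay at most 4160 bp from a gene end. The peak counted for Atp5d lay at its far end, in the window of Midn, and its listed start had peaks in both lists, at 2.10 in WT and 2.36 in KAT8-cKO. The weakest listed peaks had 8 fragments at the summit in WT and 9 in KAT8-cKO, so a member without a listed peak may still have had fragments there.

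The 14 members in neither list were the 6 restricted isoforms, the Ndufb4 copies Ndufb4b and Ndufb4c, and Ndufa1, Ndufs7, Cox5a, Cox7a2, Cox7b and Atp5k. Ndufa1 and Cox7b are X-linked, and their nearest peaks lay 49400 and 3690 bp away in WT and 56884 and 196964 bp away in KAT8-cKO. The third X-linked member, the accessory subunit Ndufb11, had folds of 3.81 and 3.20 with 15 and 14 fragments, in a window shared with Rbm10. Of all 966 X-linked genes, 18.5% were marked in WT and 11.9% in KAT8-cKO. Cox5a and Cox7a2 were missed by the window: their listed starts lie 3904 and 11569 bp inside the annotated gene. At those starts Cox5a, a matrix-side subunit of complex IV, had peaks of 3.99 in WT and 2.78 in KAT8-cKO, and Cox7a2, the widely used partner of Cox7a1, had 3.66 and 3.84. Of the 14, Ndufs7 and Atp5k were thus the broadly used autosomal genes with no peak at a gene end or a listed start in either list. Atp5k encodes a small membrane subunit of ATP synthase.

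Scored instead within 1 kb of the starts listed for 93 members, 70 were marked in both lists, 10 in WT only, 5 in KAT8-cKO only and 8 in neither. This is 86.0% in WT (46.7% of the 17492 genes with a listed start) and 80.6% in KAT8-cKO (42.7%). Cox7a1 became KAT8-cKO only under this scoring, and Ndufs8 and Uqcc2 became WT only. Peaks of members stood close to the start, a position that the window around gene ends favours for any gene. In WT, 74 of the 78 marked members with a listed start had the summit within 1 kb of it (94.9%, against 82.8% of all such genes), and in KAT8-cKO 67 of 74 (90.5%, against 81.3%). Over the summits within 1 kb, the median lay 28 bp downstream of the start in WT and 48 bp downstream in KAT8-cKO.

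**Figure D4:**
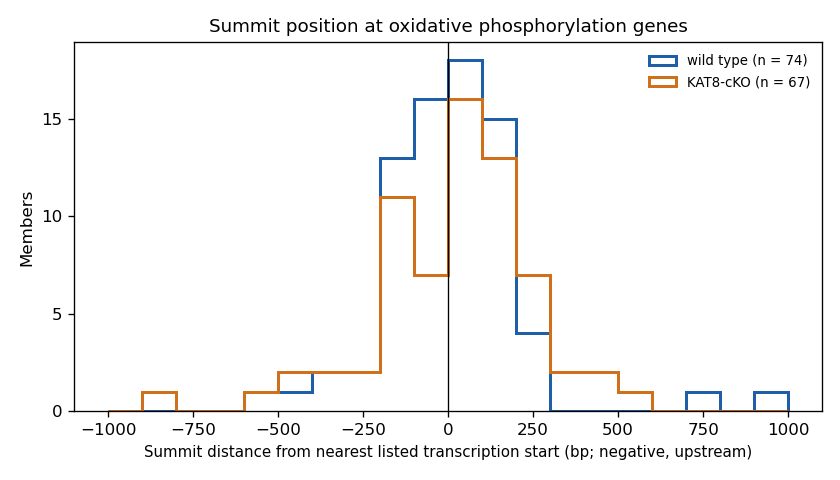
Number of members (y axis) by distance of the peak summit from the nearest listed transcription start in bins of 100 bp (x axis, negative values upstream), for wild type (blue, n = 74) and KAT8-cKO (orange, n = 67). Both outlines are centred near the start, and 68 wild-type and 56 KAT8-cKO summits fall within 300 bp of it.

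Among the 84 members marked in both lists, the fold was higher in WT for 56 (66.7%), against 70.4% of all 7827 genes marked in both, and −log10 q was higher in WT for 57 (67.9%, against 69.8%). The median fold of these members was 3.81 in WT and 3.43 in KAT8-cKO, beside 3.66 and 3.21 over all such genes. The median ratio of WT to KAT8-cKO fold was 1.13 for the members and 1.13 for all genes. Divided by the lowest background of its list, the summit count was higher in WT for 70 members (83.3%, against 83.2%). The lean towards the WT list was therefore close to that of genes at large on each of these measures. Before division, the median summit count of the members was 19.5 in WT and 19 in KAT8-cKO, beside 18 and 17 over all such genes. The divisor, higher in KAT8-cKO, thus adds to the lean of the divided counts. The peaks of the lists overlapped at 77 of the 84 (91.7%, against 82.8%), with a median of 95 bp between summits, beside 113 bp over all genes. Their median width was 629 bp in WT and 514 bp in KAT8-cKO, beside 567 and 468 bp.

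**Figure D5:**
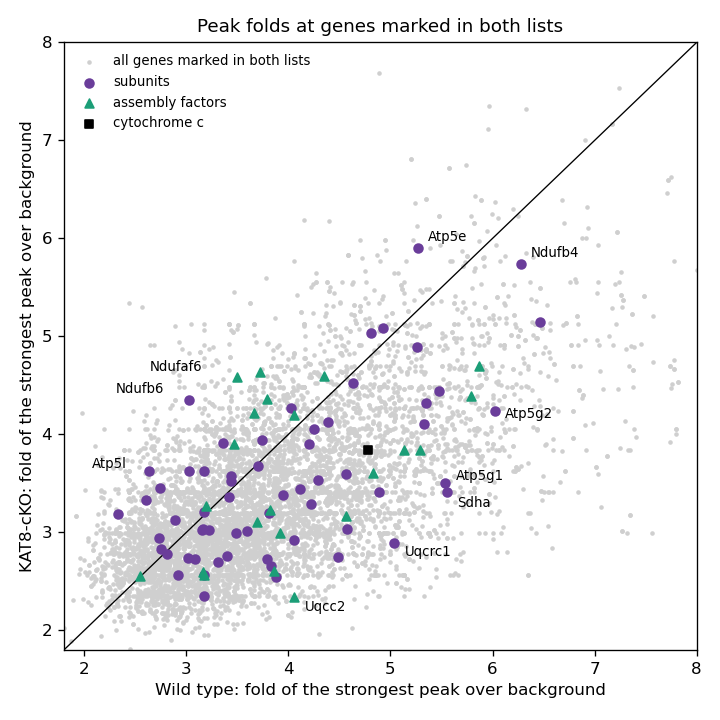
Fold of the strongest peak over background in wild type (x axis) and KAT8-cKO (y axis) at genes marked in both lists: subunits (circles), assembly factors (triangles), cytochrome c (square) and all genes (grey points, of which 20 lie outside the axes); the line marks equal folds. Of the 84 members, 56 lie below the line; Uqcrc1, Sdha, Uqcc2 and Atp5g1 are far below it, and Atp5l, Ndufb6 and Ndufaf6 are above it.

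Single members spread around this middle. The WT to KAT8-cKO ratio of fold ran from 0.696 to 1.74 and passed 1.5 in 7 members (9.43% of all genes marked in both), and none fell below the inverse of 1.5 (0.856% of all). The largest were Uqcc2 and Uqcrc1 (1.74 each), Sdha and Uqcrq (1.63 each) and Atp5g1 (1.58). The value of Uqcc2, an assembly factor for complex III, compared peaks at different ends of the gene, since its KAT8-cKO peak lay in the window of Itpr3, and at its listed start only the WT list had a peak, of fold 4.06. The smallest were 0.696 for Ndufb6, 0.726 for Atp5l, 0.732 for Ndufs3, 0.762 for Ndufaf6 and 0.781 for Cox4i1. Those of Ndufb6 and Ndufs3 also compared peaks at different ends, and at the listed start of Ndufb6 the folds were 3.03 and 3.68. Atp5l, a small membrane subunit of ATP synthase, had 2.63 in WT and 3.63 in KAT8-cKO with 14 and 18 fragments. Ndufaf6, an assembly factor for complex I, had 3.49 and 4.58 with 15 and 21 fragments. The separate exact 95% intervals of the WT and KAT8-cKO summit counts overlapped in each of the 84 members, as counted and when divided by the lowest background of each list. Overlap of separate intervals is no test of the difference, and none was made.

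By complex, the fold was higher in WT in 23 of 37 members of complex I marked in both lists, 6 of 8 of complex II, 8 of 10 of complex III, 8 of 16 of complex IV and 10 of 12 of complex V. Median folds in WT and KAT8-cKO were 3.44 and 3.38 in complex I, 3.78 and 3.26 in complex II, 3.81 and 3.62 in complex IV, and 4.16 and 3.40 in complex V. Complexes III and V had the widest gaps between these medians and complexes I and IV the narrowest, on 8 to 37 genes each and with no test. Subunits had 3.79 and 3.42 and assembly factors 3.84 and 3.73.

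Neighbouring genes and promoter sequence, which the rule did not use, varied among the members. The windows of 67 members overlapped that of another protein-coding gene, and 47 were free. Of the free members 78.7% were marked in WT and 68.1% in KAT8-cKO, against 37.4% and 34.8% of all genes with free windows. Of the shared ones 85.1% and 86.6% were marked, against 66.7% and 61.2%. Free members marked in WT lacked a KAT8-cKO peak in 18.9% of cases (26.4% of all free genes), and shared ones in 5.26% (20.4%). The strongest peak also lay in another gene's window at 42 members in WT and 47 in KAT8-cKO, and which gene the mark belongs to was not tested.

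Promoters of members were rich in CG dinucleotides. In the 300 bases around the start, 71 of 93 members (76.3%) had a GC content of at least 50% and an observed to expected CG ratio of at least 0.6, against 45.8% of all genes, a division chosen after values had been seen. Of these 71, 85.9% were marked in WT and 87.3% in KAT8-cKO, beside 71.8% and 66.9% of all genes with such promoters. Of the other 22 members, 77.3% and 54.5% were marked, beside 27.2% and 24.7% of all. Members were therefore marked more often than all genes of either promoter class. The margin was wider in the second class, but there the promoters compared were unlike in CG content. Members of that class had a median of 12 CG dinucleotides and a ratio of 0.555, beside 4 and 0.242 for all its genes.

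The searched motifs were counted on both strands of the same 300 bases. The NRF1 motif as spelled above occurred in 22.6% of member promoters and 6.66% of all 17492, CCGGAAGT (ETS) in 9.68% and 5.28%, and AAGATGGC (YY1) in 14.0% and 3.21%. Matches of different motifs overlapped in 0 promoters. Among CG-rich promoters the NRF1 letters stood in 29.6% of members and 13.3% of all genes, the ETS letters in 9.86% and 9.07%, and the YY1 letters in 14.1% and 5.13%. Members with the NRF1 letters included Uqcrc1 and Sdha. Atp5k, unmarked in both lists, held them too.

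Other gene groups with roles in mitochondria were set beside the members. Of 35 genes outside the symbol rule, mainly assembly factors, 97.1% were marked in WT and 80.0% in KAT8-cKO. They include Cyct, the gene of the testis isoform of cytochrome c, which was marked in WT only, at fold 3.42. Coa7, an assembly factor for complex IV, had folds of 8.39 and 4.73 with 45 and 24 fragments, above every member in WT. Of 78 mitochondrial ribosomal proteins, 84.6% and 78.2% were marked, shares close to those of the members. Of 89 cytosolic ribosomal proteins, 68.5% and 60.7% were marked. The share of WT-marked genes that lacked a KAT8-cKO peak was 27.9% there and 20.6% for the 35 genes outside the rule. It was 15.2% for mitochondrial ribosomal proteins and 10.6% for the members. Of 11 transcription regulators of mitochondrial genes, 9 were marked in both lists, among them Yy1 at 6.21 and 4.06 and Nrf1 at 3.12 and 3.05, and Gabpb1 was in neither.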

How the data were processed

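The 2 peak lists, from 1 WT and 1 KAT8-cKO library grouped by the genotype label, were used as deposited. The submitters' processing notes list MACS2 2.2.7.1, Bowtie 0.12.8 and DiffBind without saying what each was used for, and name mm10 as the build. How peaks were called and how many reads were sequenced is not given in the sources used here. The deposited fold is a ratio to the peak caller's background, and the deposited −log10 columns give the p-value and q-value of each peak. The deposited score repeats the p-value, and other deposited columns give positions and summit offsets. The fold and −log10 p of a peak fix a whole summit count and its background, which were solved for with a tolerance of 0.001 in −log10 p and a pseudocount of 1.

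Gene positions and promoters came from RefSeq tables of GRCm38.p6. The gene table has no strand, so both gene ends were used. The promoter table matched 93 of 114 members, and 6 of these had more than 1 entry, so the strand and the listed start come from it. Where several peaks met a window, that with the highest fold was taken. Full values were set to be given for members marked in 1 list only, the 10 with the highest WT and the 5 with the highest KAT8-cKO −log10 q, the 5 largest and 5 smallest fold ratios, X-linked members, Cyc1, Cycs and isoform pairs. Other members are named to complete a complex, and 1 member under this rule was left unreported. Coa7, Yy1 and Nrf1 were chosen after their values were seen. The members and lists were chosen with earlier results of these data known. No test between genotypes was made. The overlap and summit-count code was tested on simulated data. Analyses used Python 3.11.15, pandas 2.3.3, numpy 2.4.6, scipy 1.17.1 and matplotlib 3.10.9.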

Additional observations from a re-analysis of the deposited data

How the results depend on the processing

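The 9 counts, medians and comparisons over all members were recomputed under those of 13 settings that apply to each, of which 3 were chosen after seeing the data (listed starts, overlapping peaks and summit counts over the lowest background). Counts by complex, promoter class and motif were not recomputed. Of 95 values, 77 stayed within 1.5 times the reported count or inside the 95% interval of the reported median, and 18 did not. With −log10 q of at least 5, WT marked 38 members, KAT8-cKO 19, both lists 15 and WT only 23. Of these 15, 11 had the higher fold and 11 the higher −log10 q in WT, with median folds of 5.27 and 4.60. At this threshold 60.5% of WT-marked members lacked a KAT8-cKO peak that also reached it, against 63.1% of all WT-marked genes. The gap between 10.6% and 23.6% reported for peaks of any q was thus nearly absent there. These shares include genes with a weaker KAT8-cKO peak: of the 38 members, only 2, Ndufs5 and Cox16, had no KAT8-cKO peak of any q. Members with free windows, fewer by construction, gave 37 in WT, 32 in KAT8-cKO, 30 in both and 2 in KAT8-cKO only, with 19 of 30 higher in WT by fold and 19 by −log10 q. With q under 0.05, 16 members were WT only and 10 KAT8-cKO only. With the strongest 20000 peaks of each list, 11 were KAT8-cKO only, and with whole genes and 5 kb on both sides, 0 were. The cause of the last 3 shifts was not tested. No direction reversed under these settings. No paired analysis was possible because each genotype has 1 library and the labels give no replicate numbers, and no replicate could be left out for the same reason. The summit counts of 10 to 37 fragments limit the precision at each gene.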

Other observations

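Pseudogenes that carry the member names were looked up as a side observation. Of 20, 3 had a WT peak within 1 kb of an end (15.0%, against 7.95% of 10609 pseudogenes) and 1 a KAT8-cKO peak (5%, against 7.65%). The WT peaks stood at Cox6c2 (fold 2.93, 11 fragments), Ndufs6b (2.48, 10) and Cox20b (2.44, 9), all near the weakest peaks of the list. The Ndufb4 copies, counted as protein-coding, were unmarked in both lists while Ndufb4 had one of the strongest peaks.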
